A study of Mus musculus with 10 samples.

Results

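The semaphorins, plexins, neuropilins, Slits, Robos, netrins, netrin receptors and repulsive guidance molecules (RGMs) are the guidance genes described here. They were chosen by symbol: every row of the count table whose name begins with Sema and a digit or with Plxn, together with Nrp1, Nrp2, the Slit, Robo and Unc5 genes, Ntn1, Ntn3, Ntn4, Dcc, Neo1, Rgma and Rgmb. The rule found 48 of the 22114 genes in the table, and all 48 were among the 14561 genes tested, which are those reaching 10 counts in 1 or more arches. The rule itself uses names only.

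The samples were whole first pharyngeal arches (PA1), the paired swellings that form the jaws, from male C57BL/6 mouse embryos at e10.5. There were 5 wild-type arches and 5 Grhl2-/- arches, which carried a constitutive null allele of Grhl2, an epithelial transcription factor, from heterozygote intercrosses (the methods name the background as C57BL/6J). Epithelium, mesenchyme, vessels and nerve were sequenced together, so fewer cells of a type and less RNA per cell cannot be told apart. Arches are named below as their labels name them, for example WT1-566, where the last number is shared by several embryos of both genotypes and its meaning is not given.

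Guidance molecules steer growing axons and migrating cells, including neural crest cells and endothelial cells. Secreted class 3 semaphorins bind neuropilins, which signal through A-type plexins, whereas most membrane-bound semaphorins bind plexins directly. Slits act through Robo receptors and are mainly repellent, and netrins attract through Dcc and neogenin or repel through Unc5 receptors. RGMs bind neogenin and act as co-receptors for bone morphogenetic proteins (BMPs). In the facial prominences these families are known for guiding the trigeminal nerve and the cranial neural crest.

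Between 22188454 and 28801378 reads per arch were counted, and the guidance genes took from 0.322% to 0.386% of them. Levels are in CPM (read counts scaled to a common library size with TMM factors, the trimmed-mean method of edgeR). Grhl2 itself ranged over 31.8 to 40.5 CPM in wild-type PA1 and over 2.80 to 6.33 CPM in Grhl2-/- PA1, so every label held. WT1-566 and WT1-568 stood apart from the other arches: 10 sensory neuron markers (among them Tubb3, Isl1 and Pou4f1) summed to 43.3 and 38.4 CPM there, against 259 to 959 CPM in the other 8 arches. The main results that rest on these arches are given with and without them. Separate embryos were the replicates, and no pair of arches of the same genotype agreed within sampling noise (chi-square per gene between 6.99 and 25.2).

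Guidance genes were present across a wide range in wild-type arches. To compare genes, CPM was divided by the length in kilobases of the longest coding transcript in GENCODE release M21, which could be done for 47 of the 48, all but Ntn3. Plxnb2, a plexin for class 4 semaphorins, was highest per length at 62.0 ± 4.07 CPM per kilobase (SD, n = 5). Neo1, which encodes neogenin, followed at 40.4 ± 1.99, and Plxna1, a co-receptor of the neuropilins, at 31.4 ± 2.51. The ranges of the 5 arches of Plxnb2, Neo1 and Plxna1 did not overlap at the first and second step of this order, whereas Plxna1 and Robo1 (29.5 ± 1.78) overlapped, as did every following neighbour down to Sema4c (20.1 ± 0.780). From Sema3d (6.67 ± 0.281) to Ntn1 (4.85 ± 0.366) every neighbour overlapped, and Slit2 (5.31 ± 0.450) and Sema6d (5.71 ± 0.518) fell in that stretch. The order depends on the length used: over all annotated exons of a gene, Plxnb2, Neo1 and Plxna1 kept ranks 1 to 3, but Robo1 went from rank 4 to 8 (13.5 CPM per kilobase), Nrp1 from 5 to 14 (9.85) and Slit2 from 26 to 29 (2.08). On the transcript scale Plxna4 was lower, at 1.93 ± 0.417 CPM per kilobase, and Dcc lower still, at 0.197 ± 0.0873.

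**Figure D1:**
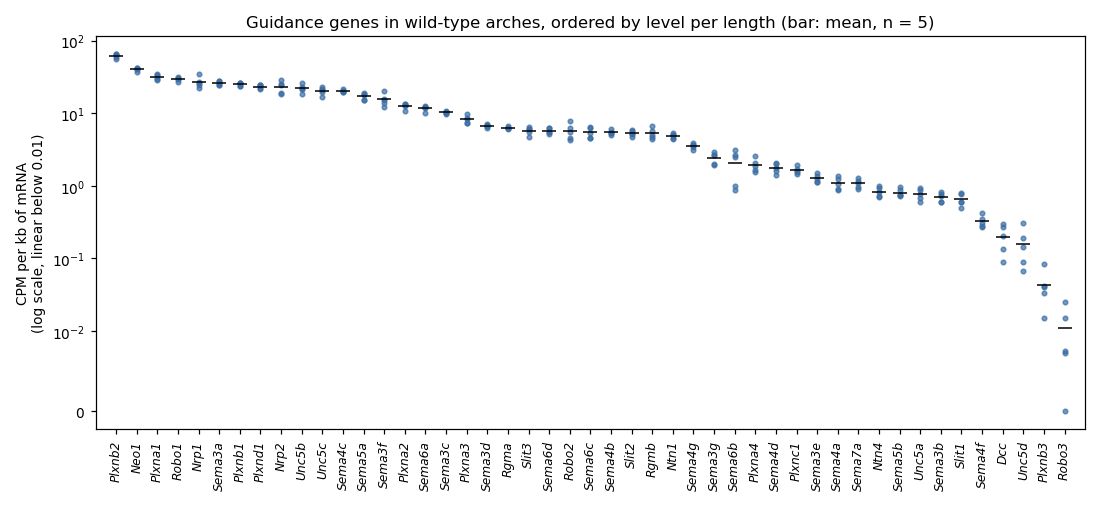
Level per length (CPM per kilobase of the longest coding transcript, log axis that is linear below 0.01) of the 47 guidance genes with a length in the 5 wild-type arches; points are arches and bars are means. Levels run from Plxnb2 at 62.0 to Robo3 at 0.0110 CPM per kilobase.

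At the bottom of the order, Robo3, a divergent Robo of commissural neurons, had no read in WT1-566, where a level up to 0.135 CPM could be missed. Its highest measured wild-type level was 0.121 CPM, in WT8-568. Robo3 reached 0.346 CPM in KO2-566 and stayed at or below 0.116 CPM in the other Grhl2-/- arches. Plxnb3 lay between 0.0908 and 0.509 CPM in wild-type and between 0.0712 and 0.312 CPM in Grhl2-/- arches. These counts are too low for a fold change to be read.

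The comparison of wild-type with Grhl2-/- PA1 asks which genes change when Grhl2 is lost. Among the guidance genes, Slit2 and Plxna4 were upregulated in Grhl2-/- PA1 and none was downregulated. At a false discovery rate (FDR) below 0.01 in limma-voom, 2 of the 48 were therefore higher, where 0.879% of all genes tested were higher, and 0 of the 48 were lower, where 1.09% of all genes were lower. Without adjustment, 16 guidance genes (33.3%) were higher and 2 (4.17%) lower at p below 0.05, where 14.2% and 14.3% of all genes were. At FDR below 0.01, edgeR called 2 higher and DESeq2 7, where 0.975% and 3.57% of all genes were higher. Both called 0 lower, where 1.11% and 3.80% of all genes were. The median log2 fold change of the 48 genes was 0.18, compared with 0.011 over all genes tested. The fitted change was positive for 37 guidance genes (77.1%) and for 52.7% of all genes. In 25 of the 48, the 95% interval of the log2 fold change lay wholly between -0.5 and 0.5, a share of 52.1% where all genes gave 67.8%. Without WT1-566 and WT1-568, which were low in sensory neuron transcripts, the median was 0.14 (all genes -0.0035), 37 were positive (all genes 49.1%), and 12 were higher (25.0%) and 1 lower (2.08%) at p below 0.05, where 7.53% and 10.6% of all genes were. The median was 0.12 with the sensory neuron markers as a covariate and 0.31 with the neural progenitor markers, and their part in the shift was not otherwise tested.

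**Figure D2:**
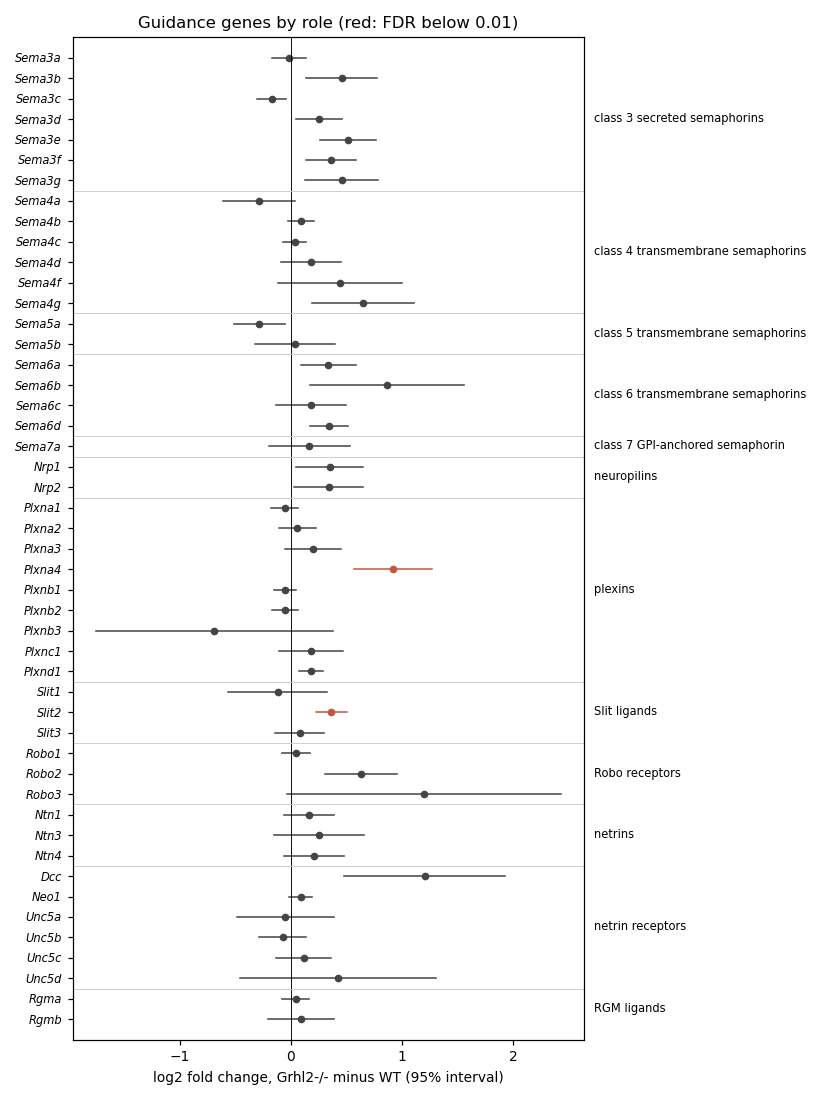
Log2 fold change (Grhl2-/- minus wild-type) of the 48 guidance genes with its 95% interval, grouped by role; red marks FDR below 0.01. Most points lie to the right of 0, with Plxna4 at 0.92 and Slit2 at 0.36 in red.

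Slit2 encodes a secreted ligand of the Robo receptors and lies at chr5:47983138-48307733 on the plus strand of GRCm38. In wild-type arches it was at 52.2 CPM in WT1-566, 56.4 in WT1-568, 46.4 in WT3-588, 57.7 in WT5-566 and 51.5 in WT8-568. In Grhl2-/- arches it was at 64.1 CPM in KO1-588, 70.2 in KO1-628, 64.6 in KO2-566, 73.8 in KO2-568 and 66.7 in KO3-604. The lowest Grhl2-/- arch was above the highest wild-type arch. The log2 fold change was 0.36 (SE 0.0641, 95% interval 0.22 to 0.50), a 1.29-fold higher level, with FDR = 0.00753 in limma-voom.

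The other Slits did not pass the test. Slit3 averaged 29.9 ± 3.53 CPM in wild-type PA1 and 31.5 ± 3.72 CPM in Grhl2-/- PA1 (SD over 5 arches), and its log2 fold change had an interval of -0.14 to 0.30. Slit1 was lower, at 3.69 ± 0.746 CPM and 3.50 ± 1.03 CPM, with an interval of -0.56 to 0.33. Thus only the Slit2 interval lay above 0, but the differences between the changes of the 3 Slits were not tested.

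Among the Robo receptors, Robo1 did not pass the test: it averaged 223 ± 13.5 CPM in wild-type PA1 and 230 ± 17.0 CPM in Grhl2-/- PA1, with an interval of -0.084 to 0.17. Robo2, which also binds Slits, was at 36.6 CPM in WT1-566, 39.0 in WT1-568, 47.5 in WT3-588, 67.5 in WT5-566 and 53.5 in WT8-568. Its levels in the Grhl2-/- arches were 62.7 in KO1-588, 84.1 in KO1-628, 75.6 in KO2-566, 82.6 in KO2-568 and 67.6 in KO3-604. WT5-566 lay among the Grhl2-/- arches, so the groups overlapped. Robo2 had a log2 fold change of 0.63 (SE 0.149) with FDR = 0.0289 in limma-voom, above the threshold. Without WT1-566 and WT1-568 it was 0.40 with FDR = 0.163, and without WT5-566 it was 0.76 with FDR = 0.00654. Both shifts follow from leaving out the lowest or the highest wild-type arches, so they are a description only.

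Plxna4 encodes a plexin through which Sema3a and class 6 semaphorins signal, and lies at chr6:32144268-32588192 on the minus strand. It was at 19.8 CPM in WT1-566, 23.7 in WT1-568, 20.9 in WT3-588, 33.2 in WT5-566 and 26.5 in WT8-568. In Grhl2-/- arches it was at 35.3 CPM in KO1-588, 55.2 in KO1-628, 56.7 in KO2-566, 43.8 in KO2-568 and 44.1 in KO3-604. All Grhl2-/- arches were above all wild-type arches, although KO1-588 exceeded WT5-566 by little. The log2 fold change was 0.92 (SE 0.158, 95% interval 0.57 to 1.26), a 1.89-fold higher level, with FDR = 0.00672 in limma-voom. Exons of Plxna4 overlap those of the antisense gene Plxna4os3, and the reads of the pair are separable only if counting used the strand. The libraries were stranded and the deposited table is named as reverse, but the counting setting itself is not given in the sources used here.

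**Figure D3:**
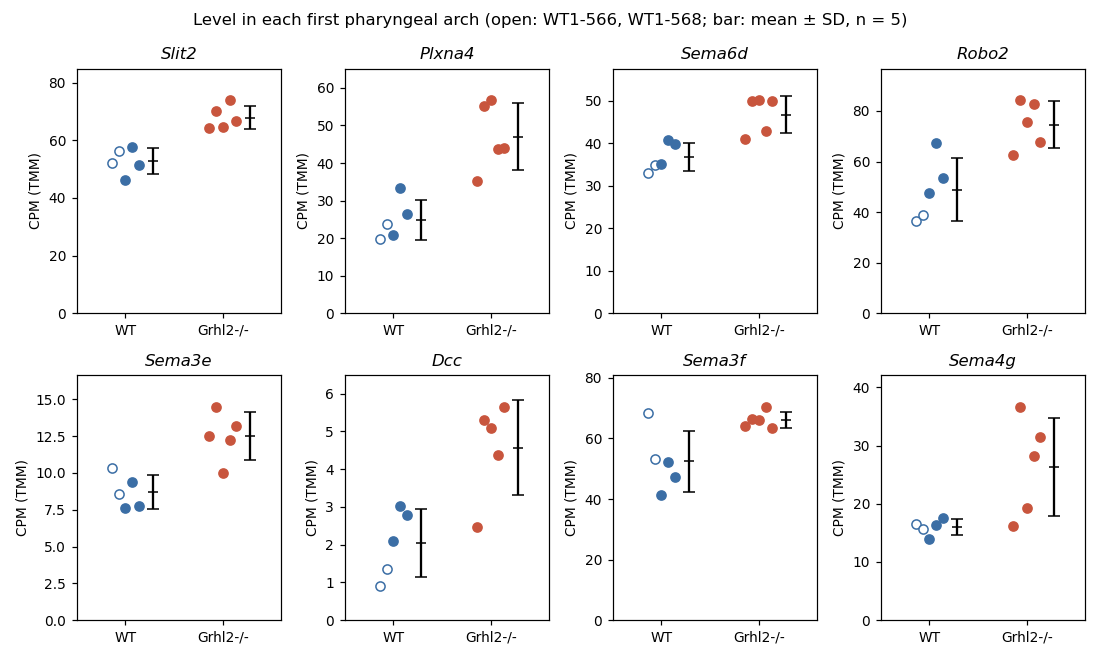
CPM in each arch for 8 guidance genes, with wild-type in blue and Grhl2-/- in red; open points are WT1-566 and WT1-568, and bars are mean ± SD over 5 arches. The groups separate for Slit2, Plxna4 and Sema6d and overlap for Robo2, Sema3e, Dcc, Sema3f and Sema4g.

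Both calls were close to the threshold, and each was lost in most fits that left out 1 arch. Over all genes, higher calls in those fits numbered from 42 to 143, against 128 with every arch. Slit2 stayed below FDR 0.01 in 3 of 10 fits that each left out an arch, and it was above it without WT1-566 (0.0232), WT1-568 (0.0123), WT3-588 (0.0157), WT8-568 (0.0233), KO1-628 (0.0218), KO2-568 (0.0194) or KO3-604 (0.0188). Plxna4 stayed below it in 2 of 10, and was above it without WT1-566 (0.0207), WT1-568 (0.0214), WT3-588 (0.0204), WT8-568 (0.0175), KO1-628 (0.0165), KO2-566 (0.0114), KO2-568 (0.0145) or KO3-604 (0.0161). The log2 fold change stayed between 0.31 and 0.40 for Slit2 and between 0.84 and 1.03 for Plxna4 over these fits. Without both WT1-566 and WT1-568 it was 0.38 with FDR = 0.0419 for Slit2 and 0.80 with FDR = 0.0647 for Plxna4 in limma-voom. Within the label numbers that hold both genotypes (566, 568 and 588), the Grhl2-/- arch was above every wild-type arch for both genes. That order was fixed, because all Grhl2-/- arches were above all wild-type arches, so it adds no support. For Slit2 the Grhl2-/- arch was at 64.6 against a wild-type mean of 55.0 CPM, at 73.8 against 54.0 and at 64.1 against 46.4. For Plxna4 the values were 56.7 against 26.5 CPM, 43.8 against 25.1 and 35.3 against 20.9. With the label number as a term in the limma-voom fit, neither gene was called (FDR = 0.0226 for Slit2 and 0.0202 for Plxna4).

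Sema6d, a transmembrane class 6 semaphorin, lies at chr2:124089969-124667770 on the plus strand and also separated the groups. It was at 33.1 CPM in WT1-566, 34.9 in WT1-568, 35.2 in WT3-588, 40.7 in WT5-566 and 39.9 in WT8-568. The Grhl2-/- levels were 41.1 in KO1-588, 50.0 in KO1-628, 50.1 in KO2-566, 42.9 in KO2-568 and 49.9 in KO3-604. KO1-588 exceeded WT5-566 by less than 1 CPM. The log2 fold change was 0.34 (SE 0.0785), with FDR = 0.0264 in limma-voom, so it was not called at 0.01. Without WT1-566 and WT1-568 it was 0.26 with FDR = 0.172. In all, 3 of the 48 genes (Slit2, Plxna4 and Sema6d) had every Grhl2-/- arch above every wild-type arch, which held for 4.22% of all genes tested, and 0 had every Grhl2-/- arch below, which held for 4.66%.

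At the looser threshold of FDR below 0.05, 6 guidance genes were higher (Slit2, Plxna4, Sema6d, Sema3e, Robo2 and Dcc), where 3.84% of all genes were higher, and 0 were lower, where 3.87% were lower. Sema3e, a secreted semaphorin that binds Plxnd1 directly, was between 7.60 and 10.4 CPM in wild-type and between 10.003 and 14.5 CPM in Grhl2-/- arches. Its highest wild-type arch, WT1-566, was above its lowest Grhl2-/- arch, KO2-566. Sema3e had a log2 fold change of 0.52 (SE 0.115) with FDR = 0.0242 in limma-voom, 0.60 with FDR = 0.00663 without KO2-566, and 0.57 with FDR = 0.0829 without WT1-566 and WT1-568. The larger change without KO2-566 follows from leaving out the lowest Grhl2-/- arch of Sema3e. None of Sema6d, Sema3e, Robo2 and Dcc stayed below 0.05 in every limma-voom fit that left out 1 arch: their highest FDR, each without WT1-568, was 0.0707, 0.0615, 0.0755 and 0.119. DESeq2 called all 4 at 0.01, where it called 3.57% of all genes higher, against 0.879% in limma-voom.

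Dcc, the receptor through which netrin attracts axons, had the largest fitted change among guidance genes with a mean of 1 CPM or more. It was at 0.908 CPM in WT1-566, 1.37 in WT1-568, 2.09 in WT3-588, 3.02 in WT5-566 and 2.79 in WT8-568. In Grhl2-/- arches it was at 2.46 CPM in KO1-588, 5.31 in KO1-628, 5.09 in KO2-566, 4.38 in KO2-568 and 5.64 in KO3-604. KO1-588 lay below WT5-566 and WT8-568, and the other 4 Grhl2-/- arches lay above all wild-type arches. The log2 fold change was 1.20 (SE 0.330) with FDR = 0.0480 in limma-voom, and 0.74 with FDR = 0.236 without WT1-566 and WT1-568.

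The other netrin receptors and the netrins did not pass either threshold. Neo1 was at 304 CPM in WT1-566, 307 in WT1-568, 272 in WT3-588, 301 in WT5-566 and 307 in WT8-568, and at 290, 330, 320, 326 and 317 CPM in KO1-588, KO1-628, KO2-566, KO2-568 and KO3-604. The groups overlapped, and the interval of its log2 fold change was -0.014 to 0.19. Unc5b and Unc5c, repellent netrin receptors, were at 129 ± 15.8 and 197 ± 23.1 CPM in wild-type and at 122 ± 14.8 and 214 ± 32.9 CPM in Grhl2-/- arches. Unc5a and Unc5d were below 4 CPM in each wild-type arch. Ntn1, the main attractant netrin, was at 28.5 ± 2.15 and 32.2 ± 5.07 CPM, with an interval of -0.063 to 0.39, and Ntn3 and Ntn4 had log2 fold changes of 0.25 and 0.21, with intervals that included 0.

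Neither RGM gene passed the test. The log2 fold change was 0.042 for Rgma (interval -0.083 to 0.17) and 0.093 for Rgmb (-0.21 to 0.39).

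Class 3 semaphorins had a median log2 fold change of 0.36 over 7 genes, of which 5 were positive and none was called at 0.01 in limma-voom (Sema3e was by DESeq2, FDR = 0.000951, and with quality weights, FDR = 0.00947). Sema3f, a neural crest repellent that binds Nrp2, was between 41.3 and 68.4 CPM in wild-type and between 63.5 and 70.3 CPM in Grhl2-/- arches. WT1-566 alone, at 68.4 CPM, lay among the Grhl2-/- arches. Its log2 fold change was 0.36 with FDR = 0.0544 in limma-voom, and 0.49 with FDR = 0.00805 without WT1-566 and WT1-568. Without WT1-566 alone it was 0.45 with FDR = 0.00737. WT1-566 and WT1-568 were the highest wild-type arches for Sema3f, so these rises follow from leaving them out. Sema3a, the class 3 ligand of highest level per length in wild-type arches, averaged 154 ± 11.1 CPM in wild-type PA1 and 152 ± 14.2 CPM in Grhl2-/- PA1, with an interval of -0.17 to 0.13. Sema3c, the cardiac neural crest attractant, had a log2 fold change of -0.17 with FDR = 0.0910, and Sema3b, Sema3d and Sema3g had 0.46, 0.26 and 0.46. The FDR of Sema3d was 0.109 in limma-voom. It was 0.00433 without KO1-588, from 0.150 to 0.212 without any other single arch, and 0.255 without WT1-566 and WT1-568. KO1-588 was the lowest Grhl2-/- arch for Sema3d, so a larger change without it was fixed.

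In class 4, 5 of 6 genes were positive (median 0.13) and none was called in limma-voom (Sema4g was by DESeq2, FDR = 0.00301). Sema4g was between 14.0 and 17.6 CPM in wild-type arches and reached 16.3 CPM in KO1-588, 36.6 in KO1-628, 19.2 in KO2-566, 28.1 in KO2-568 and 31.4 in KO3-604. The Grhl2-/- arches thus spread more than the wild-type ones, and its log2 fold change of 0.65 (SE 0.210) had FDR = 0.0779 in limma-voom. Sema4c, the class 4 gene of highest level per length, was at 78.0 ± 3.04 and 79.9 ± 4.68 CPM. Sema5a, of class 5, averaged 184 ± 20.003 CPM in wild-type PA1 and 152 ± 20.4 CPM in Grhl2-/- PA1. Its log2 fold change was -0.28, with FDR = 0.105. Sema5b and the membrane-anchored Sema7a had 0.036 and 0.16, with intervals that included 0.

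All 4 class 6 semaphorins had positive fitted changes (median 0.34), none called at 0.01 in limma-voom (Sema6d was by DESeq2, FDR = 0.00120). Sema6b was at 3.27 CPM in WT1-566, 3.74 in WT1-568, 10.04 in WT3-588, 11.45 in WT5-566 and 9.37 in WT8-568. It was at 9.17 CPM in KO1-588, 14.8 in KO1-628, 13.3 in KO2-566, 10.8 in KO2-568 and 15.4 in KO3-604. WT1-566 and WT1-568 were far below the rest, and the remaining wild-type arches lay within the Grhl2-/- range. Sema6b had a log2 fold change of 0.86 (SE 0.317) with FDR = 0.109 in limma-voom, and 0.26 with FDR = 0.463 without those arches. Sema6a and Sema6c had 0.33 and 0.18. The FDR of Sema6a was 0.0886 in limma-voom, 0.00554 without KO1-588, from 0.107 to 0.181 without any other single arch, and 0.231 without WT1-566 and WT1-568. KO1-588 was also the lowest Grhl2-/- arch for Sema6a, so a larger change without it was fixed.

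Nrp1 and Nrp2, the binding receptors of the class 3 semaphorins, had log2 fold changes of 0.35 and 0.34 with FDR = 0.129 and 0.143 in limma-voom. Without WT1-566 and WT1-568 these were 0.20 and 0.14.

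No plexin other than Plxna4 was called. Plxnb2 was at 417 CPM in WT1-566, 424 in WT1-568, 362 in WT3-588, 389 in WT5-566 and 421 in WT8-568, and at 354, 376, 390, 408 and 408 CPM in KO1-588, KO1-628, KO2-566, KO2-568 and KO3-604. Plxna1 measured 257, 309, 263, 288 and 300 CPM in wild-type PA1 in the same order, and 263, 267, 267, 271 and 295 CPM in the Grhl2-/- arches. Both overlapped throughout, with intervals of -0.17 to 0.0645 for Plxnb2 and -0.18 to 0.067 for Plxna1. Plxnd1, the endothelial receptor of Sema3e, averaged 161 ± 9.96 CPM in wild-type PA1 and 182 ± 8.96 CPM in Grhl2-/- PA1, with FDR = 0.0520. Beside it, 10 endothelial markers, among them Pecam1 and Cdh5, summed to between 422 and 487 CPM in wild-type and between 471 and 588 CPM in Grhl2-/- arches, with 0 of 10 called and none at 0 in any arch. Their part in the Plxnd1 and Sema3e values was not tested.

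WT1-566 and WT1-568 were the lowest 2 of the 10 arches for 9 guidance genes (Sema6b, Dcc, Unc5d, Robo2, Ntn3, Sema3g, Nrp2, Nrp1 and Sema6d). Without the pair, the log2 fold change fell from 0.46 to 0.25 for Sema3g and from 0.25 to 0.024 for Ntn3, and that of Unc5d went from 0.42 to -0.13. A fall is fixed by the choice of genes in which wild-type arches were lowest, so these values are a description only. The 9 genes are 18.8% of the 48, where the pair was lowest for 8.34% of all genes tested. The pair was highest for 3 (Sema3a, Sema4a and Sema5a), or 6.25%, compared with 5.37% of all genes. None of the 10 sensory neuron markers was at 0 in any arch, although Prph, at 0.045 and 0.036 CPM, was under the floor of 3 reads in WT1-566 and WT1-568, and 0 of 10 were called between the genotypes, with a median log2 fold change of 1.96. Ganglion glia and Schwann precursor markers moved alongside them, at 49.1 and 46.1 CPM in WT1-566 and WT1-568 and between 77.4 and 229 CPM elsewhere. With the mean log2 CPM of the sensory neuron markers as a covariate, Slit2 had a log2 fold change of 0.39 with FDR = 0.0134 and Plxna4 0.76 with FDR = 0.0177 in limma-voom. Slit2 in WT1-566 and WT1-568 lay inside the range of the other wild-type arches, which can be seen in the plot of levels against these markers.

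**Figure D4:**
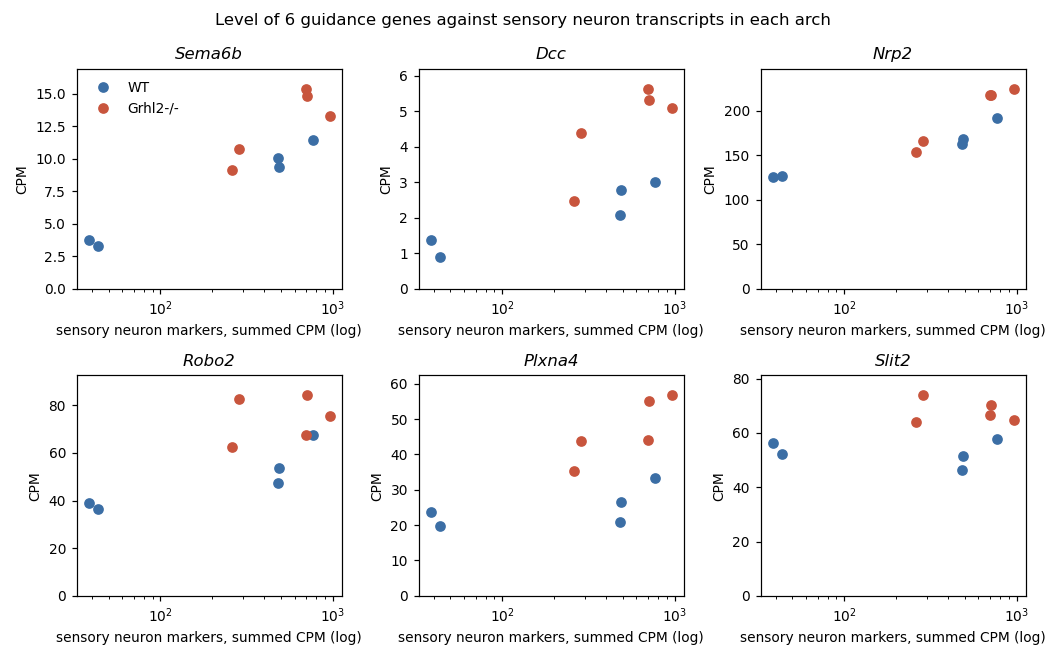
CPM of 6 guidance genes in each arch against the summed CPM of 10 sensory neuron markers (log axis), wild-type in blue and Grhl2-/- in red. Sema6b is below 4 CPM in the arches with 38.4 and 43.3 CPM of these markers, whereas Slit2 shows no such drop.

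Markers of other cell types were also compared, and only the surface epithelium sum separated the groups. Of 10 surface epithelium markers, 6 were lower in Grhl2-/- PA1 (among them Cdh1 and Epcam), and their sum was between 349 and 456 CPM in wild-type and between 214 and 283 CPM in Grhl2-/- arches. Of 10 ectomesenchyme markers 1 was lower, the homeobox gene Msx1, and the sum was between 1539 and 1939 CPM in wild-type and between 1264 and 1546 CPM in Grhl2-/- arches. Neural progenitor markers summed to between 8.03 and 19.8 CPM in wild-type and between 10.9 and 62.1 CPM in Grhl2-/- arches, highest in KO1-588. Pax6 (37.3 CPM) and Lhx2 (17.9 CPM) made up most of the sum there, and the fitted change of Lhx2 was negative (-0.30). Of these 8 markers, Olig3 and Sox1 were at 0 in some arch and 0 of 8 were called. With the mean log2 CPM of these 8 markers as a covariate, which weights each equally, Slit2 and Plxna4 had log2 fold changes of 0.53 and 1.16. Their FDR in limma-voom was 0.0278 and 0.0631, where 0.0275% of all genes were called higher. The sums of muscle progenitor, primitive erythroid and macrophage markers overlapped between the genotypes, and no gene of these lists was called. The part of these cell types in the guidance gene values was not otherwise tested.

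Genes that act beside the guidance genes were read from lists of signalling partners and relatives, of which 81 rows for 80 symbols were tested. At FDR below 0.01, 3 were higher and 0 lower, where 0.879% and 1.09% of all genes were, and the median log2 fold change was 0.057. At unadjusted p below 0.05, 18 (22.2%) were higher and 2 (2.47%) lower, where 14.2% and 14.3% of all genes were. Of the 31 semaphorin partners none was called, of the 25 Slit and Robo partners Cxcl12, and of the 22 netrin and RGM partners Bmp2, while Ntng2 was called among 4 relatives.

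Cxcl12, a chemokine whose response Slits can dampen, was between 143 and 163 CPM in wild-type and between 177 and 200 CPM in Grhl2-/- arches, a log2 fold change of 0.33 (SE 0.0487, FDR = 0.00260 in limma-voom). Bmp2, a ligand that RGMs bind, was between 1.91 and 3.27 CPM in wild-type and between 4.88 and 5.98 CPM in Grhl2-/- arches, with a log2 fold change of 1.12 (SE 0.137, FDR = 0.000752 in limma-voom). Ntng2, a membrane-anchored netrin relative that does not bind Dcc, was between 1.14 and 2.67 CPM in wild-type and between 3.52 and 5.27 CPM in Grhl2-/- arches, with a log2 fold change of 1.13 (SE 0.203, FDR = 0.00870 in limma-voom). These 3 genes, and Dapk1, Bmp4 and Dpysl5, which were not called, had every Grhl2-/- arch above every wild-type arch: 6 of the 81 (7.41%), where 4.22% of all genes did. Bmp2 kept an FDR of at most 0.00376 in limma-voom whichever arch was left out. With the neural progenitor covariate none of the 3 was called (FDR = 0.0654 for Bmp2, 0.0278 for Cxcl12 and 0.136 for Ntng2). Only 0.0275% of all genes were called higher in that fit, and the log2 fold changes were 0.94, 0.43 and 0.98 in the same order. With the sensory neuron covariate the FDR was 0.00152, 0.00573 and 0.0238 in the same order. With the label number as a term it was 0.00918, 0.0305 and 0.0641, so Bmp2 alone was called, where 0.412% of all genes were called higher. Cxcl12 was above 0.01 without WT3-588 (FDR = 0.0107), WT8-568 (0.0108), KO3-604 (0.0115) or both WT1-566 and WT1-568 (0.0165). Ntng2 stayed below 0.01 in limma-voom only without KO1-588 (0.00935). Its FDR was 0.0158 without WT1-566, 0.0279 without WT1-568, 0.0149 without WT3-588, 0.0220 without WT5-566, 0.0111 without WT8-568, 0.0194 without KO1-628, 0.0145 without KO2-566, 0.0114 without KO2-568 and 0.0228 without KO3-604. Without both WT1-566 and WT1-568, Ntng2 had a log2 fold change of 0.89 with FDR = 0.0633.

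Promoter sequences from RefSeq (GRCm38.p6) were matched by symbol for 38 of the 48 genes, in 53 windows of 300 bases from 250 before to 50 after a start site. The genes without a match were Plxna4, Plxna1, Sema3b, Sema3f, Sema6a, Slit1, Ntn1, Dcc, Unc5d and Rgma, so of the called genes the search covered Slit2 alone. They were searched on both strands for the GRHL letters AACCGGTT and AACTGGTT, for the E-box CAGGTG and, after the Slit2 window had been read, for TATAAA. AACCGGTT was in 0 of the 53 windows and in 0.146% of all 32851, and AACTGGTT was in 2 (3.77%, Sema6c and Sema6d) and in 0.776% of all. CAGGTG was in 8 windows (15.1%) and in 20.2% of all, and TATAAA in 3 (5.66%) and in 13.6% of all. The Slit2 window is shown because Slit2 was called, and a Sema6d window because it holds a GRHL match in a gene whose groups separated. That window belongs to a start site inside the gene, towards its end, and the other Sema6d window, whose first 230 bases are chr2:124089719-124089948 beside the annotated start of the gene, held no match there. The stretches printed are the first 230 bases, which end before the start site, and capitals mark the matches.
Slit2, chr5:47982905-47983134, plus strand: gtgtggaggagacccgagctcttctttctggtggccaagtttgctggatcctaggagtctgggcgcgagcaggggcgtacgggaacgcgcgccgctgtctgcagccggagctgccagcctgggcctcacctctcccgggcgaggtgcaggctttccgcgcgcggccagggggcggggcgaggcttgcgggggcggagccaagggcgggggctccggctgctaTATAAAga
Sema6d, chr2:124653331-124653560, plus strand: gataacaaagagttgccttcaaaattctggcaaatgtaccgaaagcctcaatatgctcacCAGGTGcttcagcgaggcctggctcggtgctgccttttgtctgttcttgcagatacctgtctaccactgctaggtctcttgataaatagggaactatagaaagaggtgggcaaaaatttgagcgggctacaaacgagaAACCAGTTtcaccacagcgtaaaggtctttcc
In Slit2 the TATAAA begins 28 bases before the start site. In Sema6d the letters AACCAGTT, which are AACTGGTT on the other strand, begin 52 bases before the start site and CAGGTG begins 190 bases before it. These are matches of letters only, and binding at them was not measured here.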

How the data were processed

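PA1 RNA from 10 embryos was sequenced from stranded, ribosome-depleted total RNA libraries. According to the submitters' processing notes, STAR, featureCounts, edgeR 3.18.1 and limma 3.32.7 were used on GRCm38. The authors deposited raw read counts per protein-coding gene, which are the values used here. A second deposited table holds the authors' own comparison (log2 fold changes, adjusted p-values and average expression) and was not used. Counts were TMM-normalised with edgeR 4.0.16 and tested with limma-voom (limma 3.58.1, R 4.3.3), fitting genotype alone, with FDR by Benjamini-Hochberg over all 14561 genes with at least 10 counts in 1 or more arches, and called at FDR 0.01. Precision is limited by 5 arches per group, and 3 reads were taken as the floor (0.104 to 0.135 CPM per library), which covers counting error only. The methods were tested on simulated data. The guidance genes and all lists were chosen with earlier results of these data known. Values in every arch are given for guidance genes that were called or separated the groups, the 3 highest per length, and the 3 with the largest change at 1 CPM or more. Of the others, Robo2, Sema4g, Sema3e and Sema3f were singled out after their values were seen. Partner genes were named when called. Other settings tried were DESeq2 1.42.0, the quasi-likelihood test of edgeR, other scaling and filters, quality weights, covariates, a replicate block and leaving out arches.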

Additional observations from a re-analysis of the deposited data

Results flagged for a closer look

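In 6 of 96 groups of 5 arches, each 1 gene in 1 genotype, a single arch lay far from the others, by a gap to its nearest neighbour that took more than 0.71 of the group's range. Chance gives about 1 in 20, or 4.8 of 96. In wild-type PA1, WT3-588 was lowest for Neo1 (272 CPM, gap 0.829) and for Sema6a (68.1 CPM, gap 0.826). In Grhl2-/- PA1, KO1-588 was lowest for Sema5a (116 CPM, gap 0.855) and for Robo1 (200.3 CPM, gap 0.832). KO3-604 was highest for Plxna1 (295 CPM, gap 0.738), and KO2-566 was highest for Robo3 (0.346 CPM, gap 0.713), which rests on few reads. Slit2, Plxna4 and Sema6d had no such arch in either genotype.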

How the results depend on the processing

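Guidance genes called higher numbered 7 with DESeq2, 6 at FDR 0.05, 3 with quality weights and 1 (Sema3f) without WT1-566 and WT1-568, which was chosen after seeing the data, as was the neural progenitor covariate. They numbered 0 with the replicate block and with either covariate, and 0 to 4 when each arch was left out; no setting called any lower. Partner genes called numbered 7, 6, 1, 1 and 0 with DESeq2, FDR 0.05, the block, the pair left out and the neural progenitor covariate, and 1 to 4 when each arch was left out. The guidance median was 0.12 with the sensory neuron covariate, 0.31 with the neural progenitor one and 0.14 to 0.21 leaving out arches. Over all genes, lower and higher calls were 553 and 520 with DESeq2, 564 and 559 at FDR 0.05, 69 and 60 with the block, 47 and 4 with the neural progenitor covariate and 90 and 19 without the pair. Higher calls were 204 with quality weights and 59 with the sensory neuron covariate. Leaving out each arch gave 110 to 249 lower and 42 to 143 higher.

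The label number as a replicate block gave Slit2 0.38 (FDR = 0.0226) and Plxna4 0.91 (FDR = 0.0202) in limma-voom. The labels do not say that the number pairs embryos, and deviations of same-numbered pairs correlated from -0.364 to 0.540. Some log2 fold changes reversed sign: Sema3a to 0.073 and Unc5a to 0.22 with the block, and Sema5b to -0.051 with quality weights. The sensory neuron covariate reversed Sema3a (0.052), Unc5b (0.0515), Unc5d (-0.16), Unc5a (0.0015), Rgmb (-0.073) and Ntn3 (-0.0069). The neural progenitor covariate reversed Sema4c (-0.0096), Sema4a (0.079), Plxna1 (0.012), Plxnb1 (0.016), Ntn1 (-0.013), Sema5a (0.0165) and Plxnb2 (0.13). Without the pair, Sema3a (0.036), Unc5b (0.0076), Unc5d (-0.13) and Rgmb (-0.048) reversed. Leaving out each arch, values crossed 0 for Sema3a (-0.056 to 0.026), Unc5a (-0.21 to 0.028), Slit3 (-0.0018 to 0.13), Sema5b (-0.10 to 0.0965), Sema4c (-0.0055 to 0.056), Rgma (-0.0031 to 0.0745) and Slit1 (-0.27 to 0.0090). None of these genes was called, and the cause was not tested. Depth limits Robo3 and Plxnb3.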
